A study of Homo sapiens with 39 samples.

Results

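The genes described here make, conjugate, move and sense bile acids. They are CYP7A1, CYP8B1 and CYP27A1 (synthesis), BAAT (conjugation), ABCB11 and ABCC2 (efflux into bile), SLC10A1 and SLCO1B1 (uptake from blood), and NR1H4 and NR0B2 (nuclear receptors). They were chosen by name as a functional group, and all 10 were found, each as 1 of the 20802 gene targets of a whole-transcriptome amplicon panel. The panel was read in 39 libraries from HepaRG cells, a human hepatoma line that differentiates into hepatocyte-like and biliary-like cells and keeps much of the drug metabolism of liver. Differentiated cells were exposed to 10 chemicals, each at a low, mid and high concentration, to ask how chemicals that damage DNA and chemicals that do not differ in expression.

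The 5 DNA damage-inducing (DDI) chemicals were 2-nitrofluorene (2NF; 10, 50 and 250 µM), aflatoxin B1 (AFB1; 0.25, 1 and 2.5 µM), cisplatin (CISP; 2, 5 and 10 µM) and etoposide (ETP; 0.5, 2.5 and 10 µM), all in DMSO, and methyl methanesulfonate (MMS; 50, 100 and 200 µM) in water. The 5 non-DDI chemicals were colchicine (COL; 0.05, 0.1 and 0.3 µM) in DMSO, and 2-deoxy-D-glucose (2DG; 1.25, 5 and 10 mM), ampicillin (AMP; 1, 3 and 10 mM), sodium ascorbate (ASC; 1, 2 and 10 mM) and sodium chloride (NaCl; 1, 2.5 and 10 mM) in media. All cells, controls included, had been kept for 7 days after seeding, were dosed daily over 3 days and were sampled at 55 h, 7 h after the last dose. The 9 vehicle controls were 4 DMSO, 4 media and 1 water library, and AFB1 and COL shared 1 of the DMSO controls. Each library was made from pooled RNA of 3 cultures, so that a condition is 1 value without replicates and the tests below rest on the order of the concentrations or on several chemicals together.

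Bile acids are made from cholesterol in hepatocytes. CYP7A1, cholesterol 7-alpha-hydroxylase, starts the classic pathway and sets its rate, CYP8B1 adds the 12-alpha-hydroxyl group that leads to cholic acid, and CYP27A1 oxidises the side chain and starts the acidic pathway in mitochondria. BAAT joins the finished acids to glycine or taurine, ABCB11 (the bile salt export pump) and ABCC2 (MRP2) carry products into bile, and SLC10A1 (NTCP) and SLCO1B1 (OATP1B1) return them from blood. NR1H4 (FXR) is the bile acid receptor, and one of its targets is NR0B2 (SHP), a repressor that lowers CYP7A1 transcription.

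Promoter sequence is shown for 3 genes of different roles that had a falling dose trend, so that the letters upstream of an efflux pump, a conjugating enzyme and an uptake carrier can be set side by side. A RefSeq promoter was matched for 7 of the 10 genes (build GRCh38.p14), with ABCB11 at chr2:169031325-169031574 on the minus strand, BAAT at chr9:101383565-101383814 on the minus strand (the downstream one of its 2 listed starts) and SLC10A1 at chr14:69797242-69797491 on the minus strand. The 250 bases before each start are written from 5′ to 3′ on the strand of the gene, and capitals mark AGGTCA (nuclear receptor half-site) on either strand.
ABCB11: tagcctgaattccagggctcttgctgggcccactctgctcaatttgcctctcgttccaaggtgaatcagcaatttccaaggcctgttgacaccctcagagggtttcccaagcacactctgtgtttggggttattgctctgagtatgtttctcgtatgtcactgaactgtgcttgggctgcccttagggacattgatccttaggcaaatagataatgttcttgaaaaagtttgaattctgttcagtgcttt
BAAT: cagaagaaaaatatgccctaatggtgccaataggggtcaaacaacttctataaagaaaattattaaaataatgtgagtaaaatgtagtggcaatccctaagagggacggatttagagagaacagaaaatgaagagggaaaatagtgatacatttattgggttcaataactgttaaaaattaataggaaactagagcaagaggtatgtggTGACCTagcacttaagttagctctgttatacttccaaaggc
SLC10A1: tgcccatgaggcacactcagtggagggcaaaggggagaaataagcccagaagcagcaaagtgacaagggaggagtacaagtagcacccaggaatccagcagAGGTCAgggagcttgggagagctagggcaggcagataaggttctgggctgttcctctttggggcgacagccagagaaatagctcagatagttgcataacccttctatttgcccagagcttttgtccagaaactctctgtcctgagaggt
AGGTCA was found in 3 of the 7 genes (BAAT, NR1H4 and SLC10A1), where a gene counts if any of its listed windows held it. For BAAT only the window shown held AGGTCA, and the window of its other listed start did not. Of all 35116 RefSeq promoter windows 12.1% held AGGTCA, which is a share of windows and not of genes. CAAGGTCA, an NR5A2-type site that contains AGGTCA, and CAAAGTCC, the core of an HNF4-type site, were in none of the 7, against 1.14% and 1.02% of all windows. These matches are a description of letters in a window and say nothing of binding.

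In the controls the genes lay at very different RPM (reads of a target scaled to the total of the library), and because each gene was read through 1 amplicon with its own efficiency, levels are compared between libraries only. The 4 DMSO controls averaged 250 ± 12.1 RPM (SD, n = 4) for BAAT, 159 ± 31.1 RPM for ABCC2, 103 ± 12.4 RPM for CYP27A1 and 41.7 ± 9.48 RPM for NR1H4. The low genes spread more. CYP7A1 ranged from 3.93 to 23.2 RPM over the 4 DMSO controls, a 5.90-fold range, and ABCB11 from 0.990 to 4.87 RPM, a 4.92-fold range. The CYP7A1, ABCB11, BAAT and NR1H4 values of the DMSO control shared by AFB1 and COL were the highest of the 4. NR0B2 had fewer than 10 reads in 24 of the 39 libraries, so that its values carry wide counting error.

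These genes fell along the concentrations of 4 chemicals, 2NF, AFB1, COL and MMS, and no trend passed in the other 6. The dose trend was the slope of expression over control, low, mid and high, in log2 units per concentration step, from edgeR's quasi-likelihood test over 13812 targets with Benjamini-Hochberg adjustment and a threshold of 0.05. Of 100 gene-by-chemical trends 25 passed, and all 25 were falls. In MMS 9 of the 10 genes fell, against 10.4% of all targets falling. In COL 7 fell, against 7.21%, in 2NF 5, against 4.45%, and in AFB1 4, against 3.21%. CYP7A1, CYP8B1, BAAT and ABCB11 fell in each of these 4 chemicals.

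No gene passed in the other 6 chemicals. By the same edgeR test, 0 of 10 passed in CISP (all targets in either direction, 0.0%), ETP (0.0796%), 2DG (0.0%), AMP (0.0%), ASC (0.0579%) and NaCl (0.0434%). At an unadjusted p under 0.05 there was 1 gene in CISP (ABCC2, slope 0.14 ± 0.07, SE) and 1 in NaCl (BAAT, slope 0.25 ± 0.12), both upward, and 0 in ETP, 2DG, AMP and ASC. DESeq2 also called 0 in each of the 6. Few targets of any kind passed in these 6 chemicals.

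**Figure D1:**
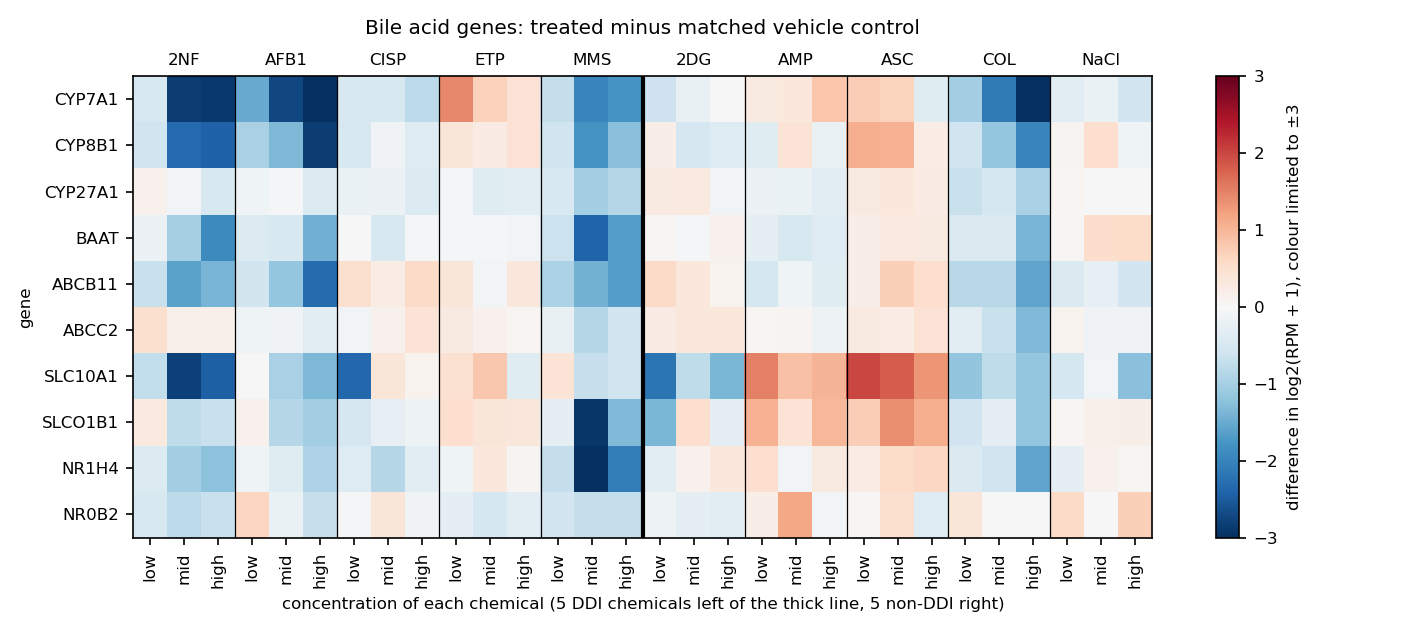
Difference in log2(RPM + 1) between each treated library and its matched vehicle control, for 10 genes (rows) and 30 treated libraries (columns; low, mid and high for each chemical, DDI left of the thick line, colour limited to 3 in either direction). The blue blocks lie in 2NF, AFB1, MMS and COL, with dark cells for CYP7A1 in 2NF, AFB1 and COL and for NR1H4 in MMS, and ABCC2 stays pale in 2NF and AFB1.

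The median over the 10 genes of the difference in log2(RPM + 1) from the matched control, at the high concentration, was -1.31 in 2NF, -1.20 in AFB1, -1.37 in COL and -1.29 in MMS. The same median over the 12790 targets with a mean of at least 1 RPM was 0.06, 0.09, 0.09 and 0.10. In the other 6 chemicals the median over the genes lay between -0.13 (CISP) and 0.35 (ASC). In this median the largest difference between controls, taken as their spread, was 0.646 among the 4 DMSO and 0.596 among the 4 media libraries. The 6 smaller medians just given lie within the spread, and those of 2NF, AFB1 and COL lie outside that of DMSO. MMS had 1 water control and so no spread of its own, and its median was larger in size than both values. At the low concentration the median was -0.44 in 2NF, -0.13 in AFB1, -0.60 in COL and -0.58 in MMS. At mid it was -1.01, -0.655, -0.633 and -1.61 in the same order. The low values of 2NF, AFB1 and COL and the mid value of COL lie within the DMSO spread, and the mid value of AFB1 lies just outside it. In ASC the median was 0.272 at low and 0.605 at mid, with 0 of the 10 genes below the control at either. The mid ASC value lies just outside the media spread.

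CYP7A1 had the steepest fall of the synthesis enzymes. In AFB1 its level was 23.2 RPM in the control and 7.44, 2.62 and 0.187 RPM at the low, mid and high concentration, the last from 2 reads, which is 0.00806 times the control with a 95% counting interval of 0.000972 to 0.0294. This control was the highest of the 4 DMSO controls, which ranged down to 3.93 RPM, and the counting interval leaves that spread out. In 2NF CYP7A1 was 10.8 RPM in the control, then 7.45, 0.625 and 0.575 RPM. The AFB1 levels stepped down at every concentration, whereas in 2NF the mid and high libraries held 7 and 6 reads and lay at about the same level. In COL CYP7A1 was 23.2 RPM in the shared control and then 10.9, 4.57 and 1.74 RPM. In MMS it was 3.97 RPM in the water control, then 2.02, 0.264 (3 reads) and 0.451 RPM (4 reads). The MMS mid and high libraries cannot be ordered at so few reads.

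The CYP7A1 slopes were -1.86 ± 0.23 (SE) in AFB1 (edgeR adjusted p = 4.71e-05), -1.60 ± 0.27 in 2NF (0.000211), -1.35 ± 0.32 in MMS (0.00517) and -1.29 ± 0.21 in COL (0.000139). With the vehicle in place of the matched control set as a term of the fit, the slopes were -1.34 in AFB1, -1.57 in 2NF, -1.34 in MMS and -0.81 in COL, and all 4 still passed. In the other chemicals CYP7A1 stayed between 2.69 and 16.3 RPM. The ETP control, at 3.93 RPM, was the lowest of the DMSO controls, and its low, mid and high libraries held 12.4, 6.92 and 5.64 RPM (slope 0.01 ± 0.23).

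CYP8B1 followed the same chemicals. In AFB1 its level went from 10.3 RPM in the control to 4.77, 3.42 and 0.561 RPM, and in COL from the same control to 6.42, 4.07 and 1.84 RPM. In 2NF it went from 12.0 to 7.64, 1.61 and 1.44 RPM, and in MMS from 4.60 to 2.72, 0.616 and 1.35 RPM. The fall was graded in AFB1 and COL, levelled off at the mid concentration in 2NF, and in MMS the mid library was the lowest. The slopes were -1.14 ± 0.20 in AFB1 (edgeR adjusted p = 0.000803), -1.18 ± 0.21 in 2NF (0.000493), -0.84 ± 0.20 in COL (0.00428) and -0.82 ± 0.24 in MMS (0.0196). ASC held the highest CYP8B1 levels of the 39 libraries, 18.6 and 18.2 RPM at the low and mid concentration against 8.28 RPM in its control and 9.86 RPM at the high concentration.

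CYP27A1 moved far less. In COL it was 105 RPM in the control and 65.9, 72.4 and 52.8 RPM along the concentrations, a slope of -0.33 ± 0.07 (edgeR adjusted p = 0.00183). In MMS it was 94.95 RPM and then 68.6, 46.5 and 52.1 RPM, a slope of -0.35 ± 0.07 (0.00171). These libraries held at least 462 reads each. In COL the high level was 0.505 times the control, with a counting interval of 0.454 to 0.559. This interval covers counting error only, and CYP27A1 itself ranged 1.32-fold over the 4 DMSO controls. In AFB1 it was 96.1, 103 and 78.2 RPM and in 2NF, from a control of 90.5 RPM, 99.3, 84.8 and 64.6 RPM. Neither slope passed (-0.10 ± 0.07, edgeR adjusted p = 0.561, and -0.19 ± 0.08, 0.161), but with the vehicle as the term the 2NF slope did (adjusted p = 0.0121).

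BAAT, the conjugating enzyme, fell in the same 4 chemicals. In 2NF it was 237 RPM in the control and 210, 118 and 61.8 RPM along the concentrations. In AFB1 it was 266 RPM and then 201, 193 and 97.4 RPM, and in COL, from the same control, 197, 195 and 100 RPM. The AFB1 and COL series were close at every step. In MMS BAAT was 165 RPM and then 105, 30.4 and 51.9 RPM. Its slopes were -0.69 ± 0.13 in 2NF (edgeR adjusted p = 0.000643), -0.69 ± 0.12 in MMS (0.000223), -0.47 ± 0.12 in AFB1 (0.0136) and -0.46 ± 0.12 in COL (0.00794).

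ABCB11, the export pump, fell in all 4 from low levels. In AFB1 it was 4.87 RPM (68 reads) in the control and 3.00, 1.61 and 0.187 RPM along the concentrations, the last from 2 reads, or 0.0384 times the control with a counting interval of 0.00456 to 0.144. This control was the highest of the 4 DMSO controls, which ranged down to 0.990 RPM, and the counting interval leaves that spread out. In COL, from the same control, ABCB11 was 2.29, 2.28 and 0.976 RPM. In 2NF it was 4.19 RPM and then 2.29, 0.714 and 0.959 RPM. In MMS it stepped down from 2.86 RPM to 1.01, 0.440 and 0.226 RPM, the last from 2 reads and 0.0791 times the control (0.00922 to 0.307). Its slopes were -1.32 ± 0.25 in MMS (edgeR adjusted p = 0.000683), -1.09 ± 0.19 in AFB1 (0.000604), -0.86 ± 0.20 in 2NF (0.00451) and -0.79 ± 0.18 in COL (0.00288). With the vehicle as the term, the COL slope was -0.39 and no longer passed (adjusted p = 0.214), and the AFB1 slope was -0.67 (adjusted p = 0.0495).

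ABCC2, the other efflux carrier, passed in COL and MMS but not in AFB1 or 2NF. In COL its level went from 161 RPM in the control to 128, 101 and 63.3 RPM, a slope of -0.46 ± 0.07 (edgeR adjusted p = 3.19e-05), and in MMS from 143 to 122, 78.6 and 96.1 RPM, a slope of -0.27 ± 0.07 (0.00681). In AFB1 it was 147, 151 and 126 RPM, and in 2NF, from a control of 201 RPM, it was 279, 223 and 223 RPM. No treated 2NF library was below its control, and the 2NF slope was -0.01 ± 0.07.

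**Figure D2:**
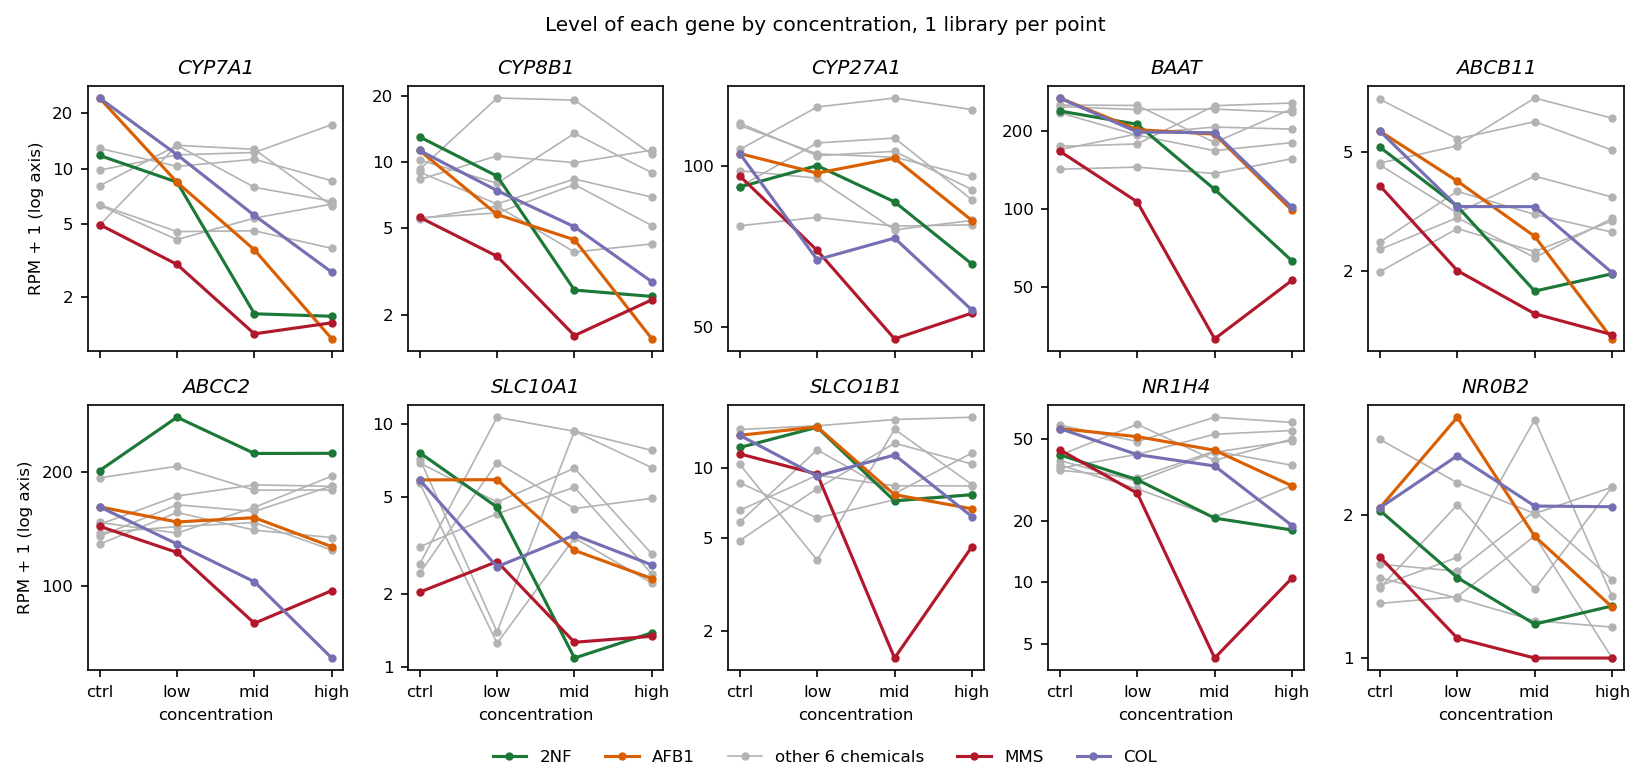
RPM + 1 (log axis) of each gene in the control and at the low, mid and high concentration, 1 library per point, with 2NF, AFB1, COL and MMS in colour and the other 6 chemicals in grey. CYP7A1, CYP8B1, BAAT and ABCB11 drop in all 4 coloured series, ABCC2 drops in COL and MMS, and the MMS series turns up again from mid to high for most genes.

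The uptake carriers passed in 1 chemical each. SLC10A1 fell in 2NF, from 6.60 RPM (63 reads) in the control to 3.53, 0.089 (1 read) and 0.383 RPM (4 reads), a slope of -1.70 ± 0.53 (edgeR adjusted p = 0.0447). The mid level was 0.0135 times the control with a counting interval of 0.000337 to 0.0782. It did not pass in AFB1 (-0.58 ± 0.40), COL (-0.61 ± 0.40) or MMS (-0.71 ± 0.65). Low SLC10A1 values also stood in single libraries of other chemicals, 0.394 RPM at the low CISP concentration against 8.32 and 6.76 RPM at mid and high, and 0.253 RPM at the low 2DG concentration against 2.39 and 1.21 RPM. In ASC it was 1.64 RPM in the control and 9.62, 8.30 and 5.59 RPM in the treated libraries. SLCO1B1 passed in MMS alone, with 10.6 RPM in the control and 8.46, 0.528 and 3.61 RPM in the treated libraries (slope -0.79 ± 0.26, edgeR adjusted p = 0.0413). The slope of SLCO1B1 was -0.46 ± 0.23 in AFB1, -0.44 ± 0.23 in COL and -0.37 ± 0.25 in 2NF, none of which passed.

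Of the receptors, NR1H4 fell in MMS from 43.3 RPM to 26.2, 3.25 and 9.48 RPM, the mid library holding 37 reads (slope -0.95 ± 0.16, edgeR adjusted p = 0.000264). In COL it went from 55.3 to 41.0, 35.9 and 17.9 RPM (-0.55 ± 0.15, 0.0165), and with the vehicle as the term the COL slope no longer passed (adjusted p = 0.117). In AFB1, from the same control, it was 50.4, 43.1 and 28.5 RPM and in 2NF, from 40.8 RPM, it was 30.7, 19.6 and 17.0 RPM, both stepwise lower but not past the test (-0.35 ± 0.15, adjusted p = 0.215, and -0.47 ± 0.16, 0.069). The NR1H4 slope in 2NF did pass with the vehicle as the term (edgeR adjusted p = 0.00586) and by DESeq2 (0.0391). Without the mid concentrations it passed in 2NF (edgeR adjusted p = 0.00608) and in AFB1 (0.0155). NR0B2, the repressor, held 8 reads in the MMS control, 1 at the low concentration and 0 at mid and high. With a count of 0 read as up to 3 reads, and the 8 control reads taken as exact, the bound was 2.40-fold lower at mid and 1.88-fold lower at high. The counting error of the control is left out of these bounds, so that the fall can be smaller than they say. Its MMS slope passed narrowly (edgeR adjusted p = 0.0489), and the fitted size is not given since it depends on how zeros are handled. In COL NR0B2 was 1.07 RPM in the control and 1.67, 1.09 and 1.08 RPM in the treated libraries.

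The treated levels were also set against all 4 DMSO controls. At the high concentration, 9 of the 10 genes in AFB1 were below the lowest of the 4 DMSO controls, as were 23.5% of the 12790 targets, 9 in COL (26.6% of targets), 8 in 2NF (22.7%), 5 in CISP (16.5%) and 3 in ETP (19.2%). Some of these margins were small. The lowest DMSO control was 128 RPM for ABCC2 and 0.990 RPM for ABCB11. At the high concentration ABCC2 in AFB1 and ABCB11 in COL and 2NF lay just under these. With the 9 controls left out, the slope over low, mid and high was negative in all 25 called trends. Those trends were called from a fit that held the same treated libraries, so that the shared sign is not separate support. In this fit of 10 residual degrees of freedom 1 (CYP7A1 in 2NF) still passed, where at most 0.73% of all targets passed in any of the 4 chemicals. When the high concentrations were left out, 12 of the 25 trends passed, 8 of them in MMS (10.2% of all targets passed) and 4 in 2NF (3.49%), and none in AFB1 or COL, where 0.0% and 0.677% of all targets passed. Without the mid concentrations the MMS count was 5, with CYP7A1, CYP8B1, SLCO1B1 and NR0B2 lost, and SLC10A1 no longer passed in 2NF (adjusted p = 0.258).

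The 4 DDI chemicals in DMSO did not act alike. CYP7A1, CYP8B1, BAAT and ABCB11 fell more steeply in AFB1 and 2NF than in CISP and ETP, a comparison chosen after the values were seen. The differences of mean slope were -1.59 ± 0.25 for CYP7A1 (edgeR adjusted p = 0.000499), -1.18 ± 0.20 for CYP8B1 (0.000919), -1.14 ± 0.20 for ABCB11 (0.00127) and -0.54 ± 0.12 for BAAT (0.011). These 4 of 10 compare with 2.02% of all targets. MMS, the DDI chemical in water, was not part of it. AFB1 and COL, which shared a control, differed in 2 of the 10 genes, against 3.24% of all targets: ABCC2 fell more in COL (difference -0.30 ± 0.06, edgeR adjusted p = 0.00132), as did CYP27A1 (-0.23 ± 0.06, 0.0302). The CYP27A1 difference did not pass with the vehicle as the term (adjusted p = 0.0589) and turned to 0.028 without the 9 controls, a fit in which 0.0% of all targets passed and the ABCC2 difference was -0.36 (adjusted p = 1). For CYP7A1 the difference was 0.57 ± 0.23 with a shallower slope in COL, and did not pass (edgeR adjusted p = 0.173). Slopes are per concentration step, and the steps span unlike ranges of concentration. A difference in slope between chemicals thus also depends on the concentrations chosen.

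As classes, DDI and non-DDI chemicals did not differ past the test in any of these genes. With the 5 chemicals of a class as replicates, edgeR called 0 of 10 genes at the low concentration (all targets 0.0%), 0 at mid (0.0%) and 0 at high (0.0515%), and DESeq2 also 0 at each. At an unadjusted p under 0.05 there were 0 at low, 2 at mid (ABCB11 and SLCO1B1, both lower in DDI) and 0 at high. The high-concentration difference for CYP7A1 was -1.76 ± 1.06 and for BAAT -0.83 ± 0.42. Within the classes the chemicals differed, with medians over the genes of -0.13 and 0.07 for CISP and ETP among the DDI chemicals and -1.37 for COL among the non-DDI. Against their controls, the DDI chemicals at high gave 0 calls by edgeR (0.478% of all targets fell), with 6 genes lower at an unadjusted p under 0.05, and 1 by DESeq2 (CYP7A1), which called 5.78% of all targets in either direction. Without COL, which shares its control with AFB1, the edgeR count was 3 (CYP27A1, BAAT and NR1H4), with the share of all targets called in either direction rising from 1.96% to 7.3%. Class and vehicle were nearly confounded, since 4 DDI chemicals and 1 non-DDI chemical were in DMSO and 4 non-DDI chemicals in media.

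The vehicles themselves were compared through the 4 DMSO and 4 media controls. No gene passed edgeR's test of the 9 that could be tested (5.35% of all targets passed in either direction), 1 had an unadjusted p under 0.05, and DESeq2 called 1 (8.77% of all targets), in both cases BAAT. BAAT was 250 ± 12.1 RPM (SD, n = 4) in DMSO and 179 ± 39.1 RPM in media, a difference of 0.51 ± 0.15 on the log2 scale (edgeR adjusted p = 0.0722). NR0B2 was too low to be tested, with 0.577 to 1.89 RPM in DMSO and 0.304 to 0.477 RPM in media. The DMSO and media values of BAAT and NR0B2 did not overlap, which was so for 10.8% of the 17938 targets with a read. Of the marker genes, 2 of 10 hepatocyte markers (APOA1 and TTR) were higher in DMSO, and of 4 biliary markers tested 1 was higher and 2 were lower, with a median difference of -0.82 on the log2 scale, and their part in these values was not tested. The controls belong to different exposure sets, so that vehicle and set cannot be told apart.

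Other genes of bile acid handling fell in the same chemicals. Of 15 other enzymes of synthesis, 13 were tested and 7 fell in MMS, 6 in COL, 4 in AFB1 and 4 in 2NF. Of all targets, 10.4% fell in MMS, 7.21% in COL, 3.21% in AFB1 and 4.45% in 2NF. In MMS the smallest p-values were those of HSD3B7, which acts after CYP7A1 (slope -0.59 ± 0.08, 65.0 RPM in the control and 19.9 RPM at high), ABCD3, a peroxisomal carrier of bile acid precursors (-0.30 ± 0.05), and SLC27A5, the bile acid-CoA ligase (2.38 RPM in the control and 0.226 RPM at high). HSD3B7 did not pass in the other 3 chemicals, and SLC27A5 fell in all 4, most steeply in 2NF, from 9.22 to 0.479 RPM. Of 15 other transport genes 12 were tested, and 8, 6, 5 and 5 fell in MMS, COL, AFB1 and 2NF. ABCG8, a subunit of the canalicular sterol exporter, went from 5.47 to 0.338 RPM in MMS and from 14.0 to 1.40 RPM in AFB1, the uptake carrier SLCO2B1 fell in all 4 chemicals, and ABCB4, the phospholipid exporter, fell in 3 (not in 2NF, adjusted p = 0.0638).

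Of 15 other regulators, 12 were tested, and 11 fell in MMS (10.4% of all targets) and 10 in COL (7.21%) against 2 in AFB1 (3.21%) and 4 in 2NF (4.45%). The coactivator PPARGC1A went from 131 to 27.8 RPM in MMS and from 119 to 27.3 RPM in COL and did not pass in AFB1 or 2NF. FGFR4, the receptor for the intestinal hormone FGF19, fell in MMS (-0.51 ± 0.08), COL (-0.28 ± 0.08) and 2NF (-0.32 ± 0.08). In the 3 lists no gene rose in any of these 4 chemicals. Of all 13812 targets, 705 rose in MMS, 708 in COL, 326 in AFB1 and 594 in 2NF, so that few rises would stand in lists of this size. None passed in either direction in the other 6 chemicals, where few targets of any kind passed.

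Hepatocyte markers also fell in these 4 chemicals. Of 10 markers 8 fell in MMS, 6 in COL, 5 in AFB1 and 5 in 2NF, beside 10.4%, 7.21%, 3.21% and 4.45% of all targets. Their median slope was -0.82, -0.50, -0.52 and -0.48 in the same order. Over the 10 bile acid genes the median slope was -0.80, -0.50, -0.53 and -0.74, and over all targets about 0 (-0.0066 to 0.0009). The summed level of the markers was 28879 to 52243 RPM in the 9 controls. At the high concentration it was 30.2% of the matched control in MMS, 43.0% in 2NF, 48.0% in COL and 59.3% in AFB1. In CISP it was 73.6%, 56.3% and 80.1% of the control at the low, mid and high concentration, where no marker passed the trend test and the median difference of the bile acid genes was -0.29, -0.14 and -0.13. APOA1, TTR and TF, secreted plasma proteins, had the smallest p-values in MMS and fell in all 4 chemicals. In bulk RNA, fewer hepatocyte-like cells and less RNA per cell cannot be told apart, and the part of cell makeup in the result was not tested.

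Markers of biliary cells, the other cell type of the line, were in part hardly detected. Each was read through 1 amplicon with its own efficiency, so that few reads do not show that a transcript was absent. EPCAM, CFTR and KRT7 never exceeded 3 reads in any library, while KRT19 was between 397 and 1314 RPM in the controls. The summed level of the 7 biliary markers was 468 to 1464 RPM in the controls and, at the high concentration, 63.9% of the matched control in MMS, 45.5% in 2NF, 82.4% in COL and 102% in AFB1. Of the 4 that could be tested, 3 fell in MMS (10.4% of all targets), 1 in COL (7.21%), 0 in AFB1 (3.21%) and 2 in 2NF (4.45%). In 2NF SPP1 rose from 38.0 to 101 RPM.

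Across the 39 libraries, the targets whose log2(RPM + 1) was most like that of CYP7A1 were ARG1 (Pearson r = 0.92), CYP2C8 (0.91) and G6PC (0.90), out of 13811 others. For ABCB11 they were C8A (0.89), CFHR4 (0.88) and RDH16 (0.87), and for NR0B2 VTN (0.71), SOX9 (0.71) and HABP2 (0.68). Among the bile acid genes themselves r was 0.83 between CYP7A1 and CYP8B1, 0.80 between CYP7A1 and ABCB11 and 0.28 between CYP7A1 and ABCC2. These values describe libraries that share chemicals and controls.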

How the data were processed

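HepaRG cells were profiled with a whole-transcriptome amplicon panel in 39 libraries of pooled RNA. The authors aligned reads to the panel's transcripts (hg19, Ion Torrent Suite) and deposited raw read counts per target and RPM, which is the count scaled to the library total. Recomputed from the counts, RPM differed by at most 0.000538. Spike-in rows (10) were left out. Libraries held 8504699 to 16425527 reads, median 11202013. PCR reads carried no molecular identifiers, so that intervals cover counting error only.

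Counts were analysed with edgeR 4.0.16 in R 4.3.3 (TMM, filterByExpr, quasi-likelihood F-test, Benjamini-Hochberg over all targets). The dose trend used all 39 libraries, a slope per chemical over 4 steps and the control set as block (20 residual degrees of freedom). The steps are ranks, not concentrations, and the residual spread is the departure from a line, not repeat exposures, so that p-values may understate the error between exposures. The class fits used 19 libraries and the vehicle fit 8. Treated and control libraries were also compared as log2(RPM + 1), and ratios of reads have exact (Clopper-Pearson) 95% intervals. A count of 0 was read as up to 3 reads, with the control count taken as exact. DESeq2 1.42.0 and the other alternatives are given at the end, and the scripts were tested on simulated data. All 10 genes are named in full, up to 3 genes of each list by the smallest p in MMS, and 3 most alike genes for CYP7A1, ABCB11 and NR0B2. Some genes and motifs of the lists are not reported here. The members, lists and tests were chosen with earlier results of these data known. Promoter letters are from RefSeq (GRCh38.p14), no coordinates of the hg19 targets were used, and CYP7A1, CYP8B1 and NR0B2 promoters are not shown.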

Additional observations from a re-analysis of the deposited data

Results flagged for a closer look

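In a check for single samples far from the rest, 40 groups of 4 or 5 values were examined and 2 were marked, where chance alone marks about 1 group in 20. Both were COL among the 5 non-DDI chemicals at the high concentration. The difference of CYP8B1 from its control was -1.99 in log2(RPM + 1), against -0.38 to 0.23 in the other 4, and that of NR1H4 was -1.57, against 0.04 to 0.61.

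The slopes of 2 genes differed between COL and AFB1, by edgeR's quasi-likelihood test of the difference: CYP27A1 by -0.23 and ABCC2 by -0.30 log2 units per step, both falling more in COL. The mean slope in AFB1 and 2NF differed from that in CISP and ETP for CYP7A1 by -1.59, for CYP8B1 by -1.18, for BAAT by -0.54 and for ABCB11 by -1.14. Both contrasts were added after seeing the data.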

How the results depend on the processing

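Of the 25 falling trends, 25 passed with RLE size factors and without the count filter. Leaving out the high concentrations gave 12 in all, with 0 in AFB1 and 0 in COL, where 0.0% and 0.677% of all targets passed (2NF 3.49%, MMS 10.2%), and comparing each control with the mean of its 3 concentrations gave 0 in all and 0 in each of 2NF, AFB1, COL and MMS, where few targets passed at all (4, 0, 7 and 161). Without the 9 controls, an alternative added after seeing the data, 1 passed (2NF 1, AFB1 0, COL 0, MMS 0), with 0.73%, 0.0219%, 0.19% and 0.219% of all targets. With the vehicle in place of the control set, 2NF gave 8, with CYP27A1, NR1H4 and NR0B2 gained (16.1% of all targets passed). By DESeq2 NR1H4 was gained in 2NF. Without the mid concentrations, also added, MMS gave 5, and NR1H4 was gained in 2NF and AFB1. Trends that no longer passed were ABCB11 and NR1H4 in COL and SLCO1B1 in MMS with the vehicle, SLCO1B1 in MMS by DESeq2, and, without the low concentrations, BAAT in AFB1 and COL, NR1H4 in COL, and CYP8B1, SLCO1B1 and NR0B2 in MMS. The contrast of AFB1 and 2NF with CISP and ETP gave 1 gene without the high concentrations, 0 against the mean of 3 concentrations and 0 without controls. COL against AFB1 gave 1 gene with the vehicle, 1 without the low and 1 without the mid concentrations, and 0 without the high concentrations, against the mean of 3 and without controls, where the CYP27A1 difference turned to 0.028. DDI against control at high gave 1 gene by DESeq2 and 0 to 3 when 1 chemical was left out (3 without COL). DMSO against media gave 1 by DESeq2 and 0 to 1 when 1 control was left out (1 without the AMP media control). The DDI against non-DDI counts were 0 under every alternative run.

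The median at the high concentration moved with a pseudocount of 0.1 in AFB1 (-1.54), 2NF (-1.75) and MMS (-1.68), and with the mean of the controls of the same vehicle in 2NF (-1.02), ETP (-0.22) and NaCl (0.22). This last alternative gives no value for MMS, which has 1 control. The cause was not tested. The matched control set was a block in the dose trends and the class fits, and without that block the class fits also gave 0 genes. No paired analysis was possible because, beyond these control sets, the labels give no replicate numbers that libraries share. Low read numbers limit NR0B2, ABCB11, SLC10A1 and CYP7A1 most.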
